A study of Mus musculus with 12 samples.

Results

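The replication-dependent histone genes supply the bulk of the histones that package newly copied DNA. They were taken as the protein-coding genes whose GENCODE M21 symbol starts with Hist1h, Hist2h, Hist3h or Hist4h and were chosen by a measured value, at least 50 counts summed over the 12 libraries. Of 67 such genes, 58 passed, among 55536 genes in the count table. By class these were 6 of 6 H1 genes, 13 of 18 H2A genes, 16 of 18 H2B genes, 10 of 12 H3 genes and 13 of 13 H4 genes.

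RNA was sequenced from cultured splenic B cells of 6 C57BL/6 mice, 3 control and 3 Pdap1-deficient (Pdap1 F/F). In the latter a Cre allele active in B cells deletes the floxed exon of *Pdap1*, and both genotypes were heterozygous for that Cre allele. Every mouse gave a pair of 48-h cultures, both with 5 µg/ml LPS. To one, called LPS-IL-4, 5 ng/ml IL-4 was added, and to the other, called LPS-BAFF-TGFβ, BAFF (10 ng/ml) with TGFβ (2 ng/ml). This gave 4 groups of 3 libraries from adult mice of both sexes. The B cells had been enriched from spleen by removing CD43-positive cells, so cells of other types could remain. The labels name CH12, a B lymphoma line, as the cell line of each sample, whereas the methods of the study describe primary B cells, and the cells are called so here.

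Core histones (H2A, H2B, H3 and H4) form the nucleosome, and the linker histone H1 binds the DNA where it enters and leaves. The replication-dependent genes lie in clusters, mostly lack introns and are transcribed in S phase under the coactivator Npat. Their mRNAs end in a conserved stem-loop in place of a poly(A) tail, which is bound by Slbp and is formed by cleavage guided by the U7 small nuclear ribonucleoprotein. The methods of the study describe libraries from ribosome-depleted total RNA, which keep such transcripts, whereas the labels name an mRNA kit.

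The stem-loop is shown because it is the element that sets these mRNAs apart from other mRNAs, and because it is held in the annotated transcripts of only some of the genes. It was found after the coding sequence in 41 of the 58 genes, and the annotated transcripts of most others stop at or close to the stop codon. The first 5 lines below give, for each class, a gene among its 3 most abundant per length that has an annotated stem-loop, followed by *Hist1h4j*, an H4 gene with a less common stem, and *Hist1h2bp*, to which the results return. The sequences are transcript strand, written as DNA, from GENCODE M21 transcripts on GRCm38, and capitals mark the stem-loop.
Hist1h1e, chr13:23621777-23621802, minus strand: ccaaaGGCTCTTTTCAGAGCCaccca
Hist1h2ab, chr13:23751567-23751592, plus strand: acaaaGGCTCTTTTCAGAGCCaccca
Hist1h2bb, chr13:23747198-23747223, plus strand: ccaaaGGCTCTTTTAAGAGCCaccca
Hist1h3b, chr13:23752815-23752840, plus strand: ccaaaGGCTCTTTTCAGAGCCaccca
Hist1h4h, chr13:23531453-23531478, plus strand: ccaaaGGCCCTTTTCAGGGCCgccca
Hist1h4j, chr13:21735432-21735457, plus strand: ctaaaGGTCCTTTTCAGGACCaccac
Hist1h2bp, chr13:21787918-21787943, plus strand: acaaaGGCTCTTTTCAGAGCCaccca

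The H1, H2A, H2B and H3 genes printed share 1 stem, with a different loop in *Hist1h2bb*, and both H4 genes differ from them within the stem. The most common form, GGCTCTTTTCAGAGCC, was found in 21 genes. The form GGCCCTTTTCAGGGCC was found in 7 genes, each of class H4, and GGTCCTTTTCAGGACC in 2, *Hist1h4b* and *Hist1h4j*. The stem-loop began 28 bases after the coding end in *Hist1h2bb* and *Hist1h2bp*, 41 in *Hist1h1e* and 47 in *Hist1h2ab*.

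On chromosome 13 lie 50 of the genes, within chr13:21715763-23764406, 5 on chromosome 3, 2 on chromosome 11 and 1 on chromosome 6. The 13 H4 genes encode 1 identical protein and the 10 H3 genes encode 2 products, whereas the 6 H1 genes encode 6. This likeness limits how reads can be assigned. Of the stretches of 50 bases in each gene's transcripts, the median share found in no other gene's transcripts, on either strand, was 98.8% for H1, 60.5% for H4, 53.1% for H2B, 42.8% for H3 and 35.2% for H2A. Genes annotated over the same bases also lower this share, as over part of each H2A gene, so it does not measure likeness alone. Levels of single H2A, H2B, H3 and H4 genes are therefore uncertain where reads fit more than 1 gene, and class sums are given beside them. The counting tool by default leaves out reads that fit several places, so class sums can lose reads too. Such losses can differ between classes, so class shares and the order of classes are also uncertain.

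The promoters are shown for what the genes share upstream of transcription. Promoters from RefSeq (GRCm38.p6, 250 bases before to 50 after the start) were matched by symbol or synonym for 53 of the 58 genes. The TATA motif TATAAA was held, on either strand, by 32 of the 53, against 13.6% of 32851 promoters of all genes, and CCAAT by 44 of 53, against 37.4%. CCAAT was held by 3 of 12 H4 promoters and by each promoter of the other classes. The octamer ATTTGCAT was held by 6 of 13 H2A and 4 of 14 H2B promoters and by none of the others, against 1.74% of all promoters. H2A and H2B genes often lie head to head, so their windows overlap and 1 motif can be counted for both. The motif AAACACA, known as the H1 box, was held by 5 of 6 H1 promoters, against 7.18% of all promoters, and the exception was *Hist1h1a*. It was also held by 1 H2A and 1 H2B promoter. The 130 bases before the start are given for *Hist1h1a*, for *Hist1h1b* with the H1 box, and for *Hist1h2bg* with the octamer. Capitals mark these motifs and TATAAA.
Hist1h1a, chr13:23763538-23763667, plus strand: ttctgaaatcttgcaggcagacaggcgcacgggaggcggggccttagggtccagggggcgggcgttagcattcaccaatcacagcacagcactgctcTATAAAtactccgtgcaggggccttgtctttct
Hist1h1b, chr13:21780626-21780755, minus strand: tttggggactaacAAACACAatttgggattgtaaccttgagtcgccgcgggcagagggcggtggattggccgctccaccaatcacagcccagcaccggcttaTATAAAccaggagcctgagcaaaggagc
Hist1h2bg, chr13:23571270-23571399, plus strand: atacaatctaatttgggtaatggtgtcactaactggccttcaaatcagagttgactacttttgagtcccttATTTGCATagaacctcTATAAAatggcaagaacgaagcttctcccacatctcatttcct
The absence of a motif says only that these letters are not in the window.

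Libraries held 4579793 to 15869143 counts, apart from 69500640 in the LPS-BAFF-TGFβ library of control mouse 1. *Pdap1* was at 91.4 to 97.8 CPM (the count relative to the TMM-scaled library total, in ppm) in the control and 23.3 to 29.9 CPM in the Pdap1-deficient LPS-IL-4 libraries. In LPS-BAFF-TGFβ it was at 80.3, 100.3 and 198.8 CPM in control and at most 26.4 CPM in Pdap1-deficient libraries, the highest value being that of control mouse 1. Among B cell markers, *Ms4a1* was at 464 to 1087 CPM and *Cd79b* at 240.5 to 681 CPM over the 12 libraries. Markers of NK cells summed to at most 3.16 CPM, of erythroid cells to at most 23.8 CPM and of T cells to at most 35.8 CPM. The 7 myeloid markers summed to 5.22 to 24.8 CPM in the control libraries. In Pdap1-deficient mice 1, 2 and 3 they summed to 6.77, 316.5 and 33.7 CPM with LPS-IL-4, and their highest sum with LPS-BAFF-TGFβ was 549.8 CPM, in mouse 2.

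Levels spanned more than 3 orders of magnitude between genes. Per length (TMM-scaled CPM per kb of exon, mean of the 12 libraries), the linker histones *Hist1h1a* at 626 and *Hist1h1b* at 593 held the top ranks. *Hist1h1e* followed in its class at 249.2 CPM per kb, and the testis-type linker histone *Hist1h1t* was lowest at 0.418. Ranks per length depend on the annotated exon length, 741 bases for *Hist1h1a*, 743 for *Hist1h1b* and 1930 for *Hist1h1e*. In counts outside the LPS-BAFF-TGFβ library of control mouse 1, *Hist1h1e* (48089) lay above *Hist1h1a* (46288) and *Hist1h1b* (43941). Among H2B genes *Hist1h2bn* (562), *Hist1h2bb* (446) and *Hist1h2bg* (292 CPM per kb) led. *Hist1h2br*, at 0.442 CPM per kb, was the lowest H2B gene, and its coding sequence is identical to that of *Hist1h2bq*.

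Among H3 genes *Hist1h3b* was at 178, *Hist1h3e* at 175 and *Hist1h3i* at 141 CPM per kb, and the lowest, *Hist2h3c2*, at 1.55, has a copy with the same coding sequence, *Hist2h3c1*, that was listed at 0 in each library. *Hist1h4k* (495), *Hist1h4h* (442) and *Hist1h4d* (321 CPM per kb) led the H4 genes, and *Hist1h4b* was lowest at 1.91. Class medians were 245 for H1, 176 for H4, 134 for H3, 89.0 for H2B and 6.06 CPM per kb for H2A. Without the LPS-BAFF-TGFβ library of control mouse 1, which had high histone counts, they were 228, 137, 92.2, 67.8 and 1.39 CPM per kb, so that the H2A median rested on that library, and *Hist1h3e* (138) lay above *Hist1h3b* (125 CPM per kb). With levels computed per kb of bases unique among transcripts, the order of these medians was the same, but 5 of the 10 highest genes were shared for stretches of 50 bases and 7 for 100.

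**Figure D1:**
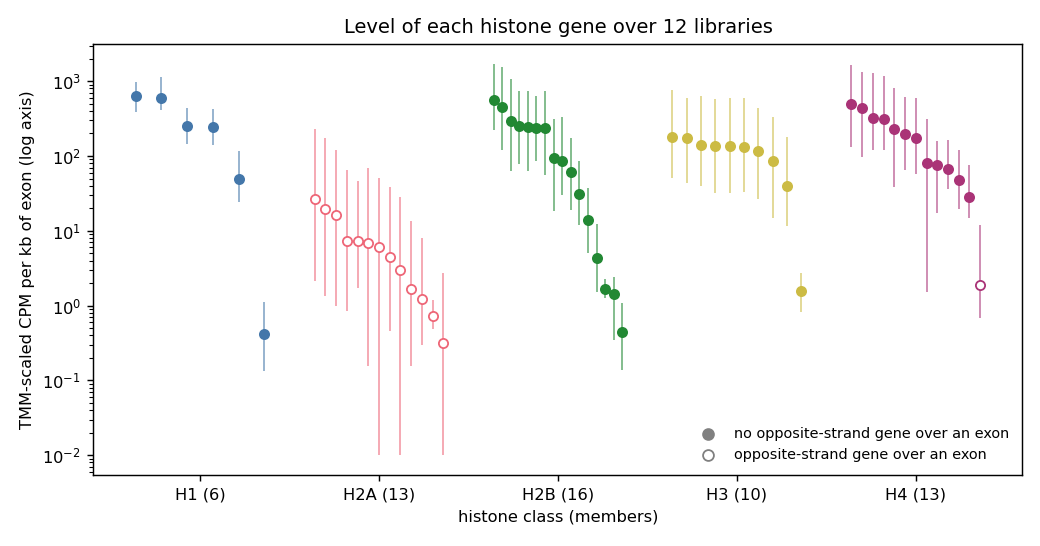
Level of each of the 58 histone genes, in TMM-scaled CPM per kb of exon on a log axis, by class. Points are means over 12 libraries, lines run from the lowest to the highest library (those that reach the bottom end in a library without a count), and open points mark genes with an annotated gene on the opposite strand, which include each H2A gene and *Hist1h4b*.

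H2A transcripts were scarce in the count table compared with the other core histones. *Hist1h2ak*, the highest, was at 26.4 CPM per kb, *Hist2h2ac* at 19.4 and *Hist1h2ab* at 16.5, and *Hist2h2ab* was lowest at 0.318. Without the LPS-BAFF-TGFβ library of control mouse 1 these levels were 7.78 for *Hist1h2ak*, 5.49 for *Hist2h2ac*, 7.14 for *Hist1h2ab* and 0.0999 CPM per kb for *Hist2h2ab*. In 9 places an H2A and an H2B gene lay head to head with 176 to 302 bases between their starts. In the 11 libraries other than the LPS-BAFF-TGFβ library of control mouse 1, the level per kb of the H2A gene was a median of 1.17% of that of its H2B partner. For *Hist1h2ak* and *Hist1h2bn* the share was 1.70%, and only *Hist2h2ac* lay above its partner, *Hist2h2be*, which has a long annotated 3′ end and a low level.

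The annotation over the H2A genes differs from that of the other classes. Each of the 13 H2A genes has an annotated gene on the opposite strand over part of its exon. In 12 this is a predicted miRNA gene of 138 to 144 shared bases, and in *Hist2h2ab* it is the antisense gene *Gm15444*, with 303 shared bases. *Hist1h4b* lies under the antisense gene *4930558J22Rik* (223 shared bases, 70 counts in all). The 12 miRNA genes over H2A genes were listed at 0 counts, and among the genes below the threshold *Hist2h2aa1* and *Hist2h2aa2* are a pair of H2A genes with the same coding sequence that had 0 counts themselves and lie under antisense genes with 265 and 301 counts. Whether counting used strand is not given in the sources used here, and the part of these overlaps in the H2A levels was not tested. On the same strand, *Hist1h2be* and *Hist1h1e* lie on annotated exons of each other and of the pseudogene *Gm11398* (816 bases for either), *Hist3h2a* overlaps *Trim17*, and *Hist1h2ac* contains the ribosomal RNA gene *Gm24991*, so these values are also uncertain.

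Near the threshold of 50 counts, *Hist1h1t* and *Hist2h2ab* were just inside with 81 counts each, and *Hist1h2ba* (18 counts) and *Hist1h2ao* (10 counts) were just outside. Of the 67 genes 6 had no count. The library of control mouse 1 with LPS-BAFF-TGFβ held 76 of the 81 counts of *Hist2h2ab*. Without that library 53 genes would have reached the threshold, and the 5 lost were *Hist1h1t*, *Hist1h2ad*, *Hist1h2ah*, *Hist1h4b* and *Hist2h2ab*.

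That library stood apart from the other 11 in its histone counts. Of its counts 1.58% came from the 58 genes, against 0.283% to 0.764% in the others. It was the highest library for 55 of the 58 genes, against 16 of 44 S phase genes. The share of all genes highest in it is not given here. It held 67.2% of the counts of these genes over the 12 libraries and 39.0% of all counts. The classes were not equally high in it. Relative to the mean of the other 11 libraries, the median ratio over genes was 2.0 for H1, 3.52 for H2B, 4.21 for H4, 5.98 for H3 and 27.2 for H2A. The 5 genes that reached 50 counts only with that library were chosen through their counts in it. Neither their ratios nor their being highest there is therefore a finding. Over the other 53 the medians were 1.93 for H1, 3.52 for H2B, 4.10 for H4, 5.98 for H3 and 25.98 for H2A. Among these *Hist1h2an*, with 52 counts outside that library, stood at 56.0 times the mean of the others, *Hist2h2ac* at 31.4 times, *Hist1h1a* at 1.64 times and *Hist3h2a* at 1.16 times.

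**Figure D2:**
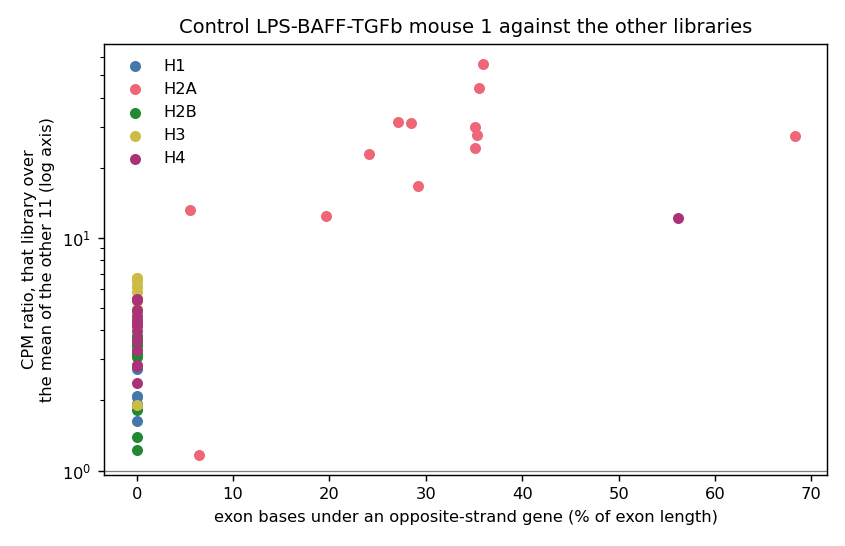
Ratio of CPM in the LPS-BAFF-TGFβ library of control mouse 1 to the mean of the other 11 libraries, on a log axis, against the share of exon bases under an annotated gene of the opposite strand. Each point is a histone gene coloured by class. Genes without such a gene lie between 1.23 and 6.74, and 13 of the 14 with one lie at or above 12.1, the exception being *Hist3h2a*. Of these 13, *Hist1h2ad*, *Hist1h2ah*, *Hist1h4b* and *Hist2h2ab* are members only through that library.

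Other RNAs that lack a poly(A) tail were also high there. The 7SK RNA *Rn7sk* was at 20560 CPM in that library and 1339.6 to 2908 CPM in the others, and *Rny3* at 23.6 CPM against 0.426 to 1.94 CPM. The replacement histone *H2afx*, which is made both with a stem-loop and with a poly(A) tail, was at 152.9 CPM against 17.5 to 43.1 CPM. Of 9 replacement histones with at least 50 counts 6 were highest in that library, with no share of all genes given here. *H3f3a* was at 99.1 CPM against 28.6 to 50.9 CPM and *H2afv* at 39.6 CPM against 9.08 to 22.7 CPM, whereas *H3f3b* was at 737.5 CPM, within the range of 661 to 785 CPM of the others. Depth, the histone counts and these RNAs moved together in 1 library, and their part in the comparisons was not tested.

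The remaining libraries differed by mouse as well as by group. The 58 genes summed to 4847, 5220 and 7704 CPM in control mice 1, 2 and 3 with LPS-IL-4. In the Pdap1-deficient mice they summed to 4953, 3284 and 3567 CPM. Mouse 1 of the Pdap1-deficient mice lay among the controls, and mice 2 and 3 lay below each control. With LPS-BAFF-TGFβ the sums were 17491, 5318 and 6776 CPM in control mice and 5957, 4446 and 2756 CPM in Pdap1-deficient mice, so that the groups overlapped at Pdap1-deficient mouse 1. The means were 5923 ± 1553 and 3935 ± 893 CPM with LPS-IL-4, and 9861 ± 6647 and 4386 ± 1601 CPM with LPS-BAFF-TGFβ, in control and Pdap1-deficient mice (SD, n = 3). The long nuclear RNAs *Malat1*, *Neat1*, *Kcnq1ot1*, *Meg3* and *Mir17hg*, of which 4 were detected in each library and 0 of 4 tested were called between genotypes, were measured beside them. With LPS-IL-4 they summed to 3137 to 3310 CPM in control mice and to 3612, 6076 and 4694 CPM in Pdap1-deficient mice 1, 2 and 3, highest in the mouse with the lowest histone sum. With LPS-BAFF-TGFβ they summed to 3751, 2605 and 3009 CPM in control and 2791, 3705 and 2941 CPM in Pdap1-deficient mice. There they were instead highest in control mouse 1, the mouse with the highest histone sum. Their part in the histone levels was not tested. In bulk RNA, fewer cells that make these transcripts and less histone RNA per cell cannot be told apart.

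**Figure D3:**
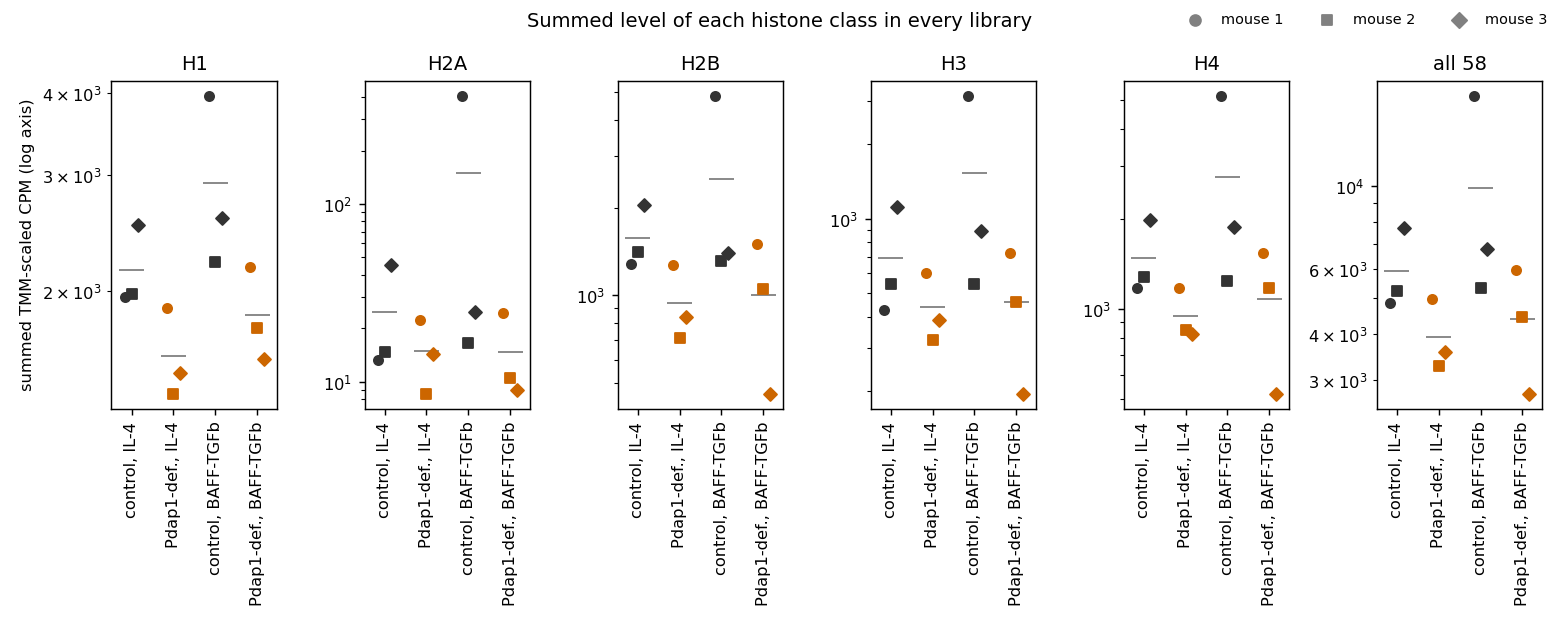
Summed TMM-scaled CPM of each histone class and of all 58 genes in every library, on log axes that differ between panels. Circles, squares and diamonds are mice 1, 2 and 3, dark points are control and orange points Pdap1-deficient, and grey lines are group means. The highest point of each panel is the LPS-BAFF-TGFβ library of control mouse 1.

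Histone counts were divided unequally among the classes. In the 11 libraries other than that of control mouse 1 with LPS-BAFF-TGFβ, H1 held 32.7% to 57.2% of the histone counts, H2B 16.6% to 27.0%, H4 18.8% to 27.7%, H3 7.06% to 14.4% and H2A 0.237% to 0.591%. In that library H1 held 22.6%, H2B 27.7%, H4 29.4%, H3 18.0% and H2A 2.32%. The highest H1 share was that of Pdap1-deficient mouse 3 with LPS-BAFF-TGFβ. There H2B, H3 and H4 genes lay a median of 1.25, 1.55 and 1.32 below their 12-library means on the log2(CPM + 1) scale, while H1 genes lay 0.40 below. The median SD of a gene over these 11 libraries on that scale was 0.34 for H1, 0.55 for H2B, 0.57 for H4 and 0.68 for H3 genes, and 0.35 for H2A genes, whose levels are low against the pseudocount of 1.

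The first comparison asked how loss of Pdap1 bears on these genes in LPS-IL-4 cultures. *Hist1h2bp*, an H2B gene, was at 9.88, 12.4 and 15.9 CPM in the control libraries and at 5.68, 3.65 and 5.39 CPM in the Pdap1-deficient ones. The 3 control values lay above the 3 Pdap1-deficient values. It fell by 1.39 on the log2 scale (SE 0.24, edgeR adjusted p = 0.0124), and was past the threshold of 0.05 in 11 of 14 fits. It was the 1 histone gene called of 49 tested. Of all 15074 genes tested, 4.92% were called in either direction and 2.12% lower.

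The other genes mostly lay lower in Pdap1-deficient cells without passing the test. The log2 fold change was below 0 for 46 of the 49, against 47.3% of all genes tested, with a median of -0.69 against 0.02 for all genes. In 21 of them the unadjusted p was under 0.05 with a lower level, against 11.7% of all genes. The 13 genes whose 3 Pdap1-deficient values all lay below the 3 control values compare with 16.1% of all genes. These genes vary together between mice, so such counts are not independent. By class the medians were -0.45 for H1, -0.83 for H2A, -0.70 for H2B, -0.61 for H3 and -0.72 for H4.

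Genes close to the threshold came from classes H1, H2B and H4. *Hist1h1a*, a linker histone, was at 436, 417 and 472 CPM in control and 366, 288 and 299 CPM in Pdap1-deficient libraries (log2 fold change -0.48, SE 0.12, adjusted p = 0.0504). *Hist1h2bm* was at 122, 125 and 173 CPM in control and 98.6, 60.8 and 67.8 CPM in Pdap1-deficient libraries (-0.89, SE 0.21, adjusted p = 0.0505). *Hist4h4*, the H4 gene on chromosome 6, was at 140.2, 126 and 185 CPM against 115.5, 83.7 and 80.9 CPM (-0.69, SE 0.18, adjusted p = 0.0580). In each of the 3 genes the groups did not overlap, and Pdap1-deficient mouse 1 lay nearest to the controls. Above 0 lay 3 genes, none past the threshold, namely *Hist2h2be* (0.24, SE 0.24), *Hist2h3c2* (0.10, SE 0.32) and *Hist3h2a* (0.09, SE 0.33).

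The count of called genes in LPS-IL-4 depended on single mice and on the tool. DESeq2 called 12 of 48 genes lower, against 4.81% of all 13669 genes it tested, of which 6 were H4, 5 H2B and 1 H1. With Pdap1-deficient mouse 1 left out edgeR called 16, without Pdap1-deficient mouse 2 it called 2, and without control mouse 2 or control mouse 3 it called 0. The share of all genes called in these fits is not given here, so these counts show only that calls depended on single mice. The median was -0.49 without Pdap1-deficient mouse 2, which had the high myeloid markers, and -0.30 without control mouse 3. *Xist*, expressed in female cells, was at 839, 0.989 and 718 CPM in control mice and 834, 1.95 and 1.48 CPM in Pdap1-deficient mice 1, 2 and 3, and its part was not tested.

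*Hist1h4m*, an H4 gene, was low in both cultures of 1 mouse. It had 347, 350 and 499 counts in the control LPS-IL-4 libraries, and 382, 10 and 157 counts in Pdap1-deficient mice 1, 2 and 3. With LPS-BAFF-TGFβ the Pdap1-deficient mice had 190, 5 and 50 counts, and mouse 2 was again lowest. *Hist1h4n*, with an identical coding sequence, had 1062 and 330 counts in that mouse, and 10.2% of the stretches of 50 bases of *Hist1h4m* were unique. Pdap1-deficient mouse 1 was within the range of the controls in LPS-IL-4.

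**Figure D4:**
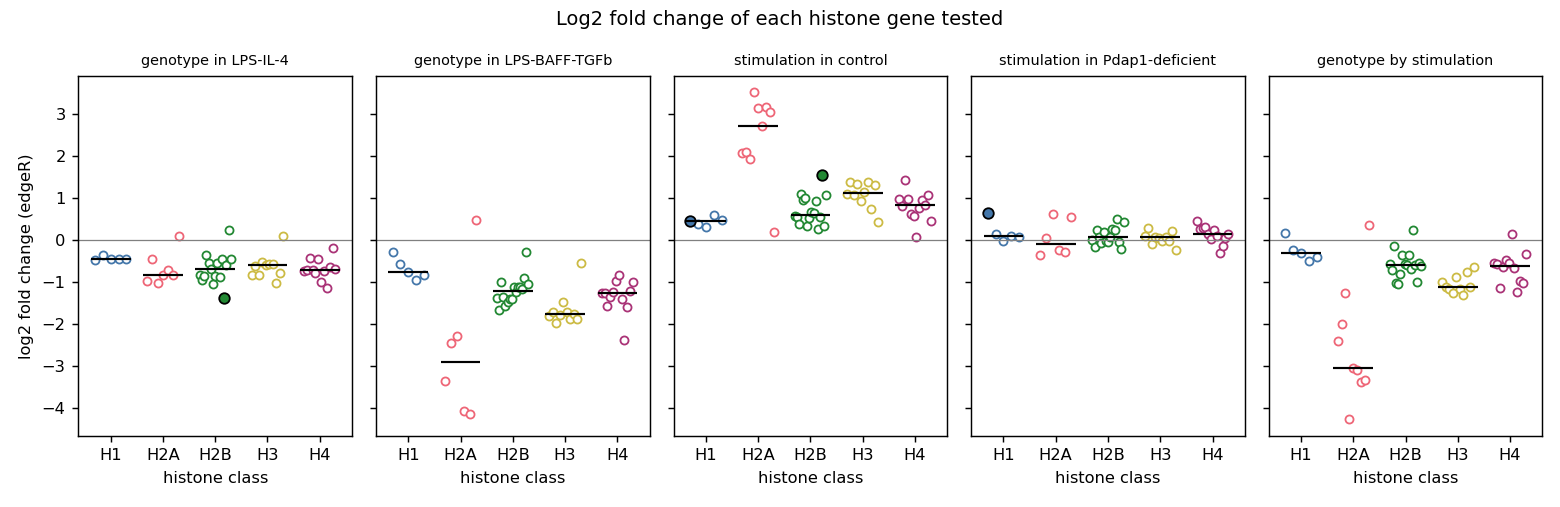
Log2 fold change of each histone gene tested, by class, in the 5 comparisons (Pdap1-deficient over control, LPS-BAFF-TGFβ over LPS-IL-4, and their interaction). Filled points outlined in black passed an adjusted p of 0.05 in edgeR, open points did not, and black lines are class medians. H2A genes lie farthest from 0 in the 3 panels that use the LPS-BAFF-TGFβ library of control mouse 1.

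The same comparison in LPS-BAFF-TGFβ cultures called 0 of 49 histone genes with edgeR, where 0.462% of 14079 genes were called. The unadjusted p was under 0.05 with a lower level for 5 genes, against 5.28% of all genes. DESeq2 called 1, *Hist1h1e*, against 0.234% of all genes called lower. Below 0 were 49.1% of all genes. The median log2 fold change was -1.37, with 48 of 49 genes below 0, and -0.50 without control mouse 1, with 3 of 49 above 0. The median of H2A genes, -2.92, became -0.31 without it.

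*Hist1h1e*, a linker histone, was at 855, 549.5 and 647 CPM in control and 493, 372 and 277 CPM in Pdap1-deficient libraries (log2 fold change -0.84, SE 0.23, adjusted p = 0.309). *Hist1h1c* was at 672, 354 and 479 CPM against 379, 290.5 and 217 CPM (-0.76, SE 0.28, adjusted p = 0.438). *Hist2h4* was at 270.4, 91.6 and 210.5 CPM against 96.1, 89.0 and 59.8 CPM (-1.22, SE 0.44, adjusted p = 0.445), and was called with control mouse 2 left out. The groups overlapped for *Hist1h1c* and *Hist2h4* and did not for *Hist1h1e* and *Hist1h2bq*, the latter at -1.18 (SE 0.46, adjusted p = 0.433). In all, 4 genes did not overlap, against 9.08% of all genes. The 1 gene above 0 was *Hist3h2a* (0.47, SE 0.40). Without control mouse 1 the log2 fold change was -0.65 for *Hist1h1e*, -0.50 for *Hist1h1c*, -0.89 for *Hist2h4*, -1.08 for *Hist1h2bq* and 0.70 for *Hist3h2a*, none past the threshold.

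*Hist1h1a* was higher in LPS-BAFF-TGFβ than in LPS-IL-4 cultures in each of the 6 mice. In control mice 1, 2 and 3 it was at 436, 417 and 472 CPM with LPS-IL-4 and 723, 530 and 565 CPM with LPS-BAFF-TGFβ. In Pdap1-deficient mice it was at 366, 288 and 299 CPM and at 542, 437 and 495 CPM. No value with LPS-BAFF-TGFβ lay within the LPS-IL-4 range of the same genotype. It rose by 0.46 on the log2 scale in control (SE 0.12, adjusted p = 0.0368) and by 0.63 in Pdap1-deficient cells (SE 0.13, adjusted p = 0.0109). With the mouse as a block, which pairs the cultures of a mouse, the adjusted p was 0.0686 in control and 6.9e-07 in Pdap1-deficient cells.

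In control cells 2 of 52 histone genes were called higher, where 19.3% of 14882 genes were called in either direction and 9.99% higher. The other was *Hist1h2br*, at 0.823, 0.540 and 0.351 CPM with LPS-IL-4 and 1.18, 2.43 and 1.83 CPM with LPS-BAFF-TGFβ (1.54, SE 0.45, adjusted p = 0.0481, 0.0938 with the block). Its counts were low, at 10, 6 and 4 with LPS-IL-4 and 74, 20 and 15 with LPS-BAFF-TGFβ, and its reads can fit *Hist1h2bq*. With the block 0 of the 52 genes were called. The log2 fold change was above 0 for 52 of 52, against 52.9% of all genes, with a median of 0.93, and without the LPS-BAFF-TGFβ library of control mouse 1 alone it was above 0 for 24 of 52, with a median of -0.065. *Hist1h1e* (0.47, SE 0.17, adjusted p = 0.0994) and *Hist1h2bf* (1.09, SE 0.40, adjusted p = 0.125) followed by p, and the groups overlapped for both. Without that library alone the log2 fold change was 0.32 for *Hist1h1a* (adjusted p = 0.0021), 1.88 for *Hist1h2br* (adjusted p = 0.00528), 0.28 for *Hist1h1e* and 0.56 for *Hist1h2bf*, the last 2 not past the threshold.

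In Pdap1-deficient cells *Hist1h1a* was the 1 gene called of 48, where 11.5% of 14617 genes were called and 5.57% were called higher. It was not called without Pdap1-deficient mouse 1 (adjusted p = 0.0867) or mouse 3 (adjusted p = 0.250), and in control cells not without control mouse 2 (0.145) or mouse 3 (0.174). The median log2 fold change of the 48 was 0.07, with 31 above 0, against 49.7% of all genes. *Hist1h1b*, another abundant linker histone, was at 397, 308 and 344 CPM with LPS-IL-4 and 390.5, 368 and 404 CPM with LPS-BAFF-TGFβ (0.15, SE 0.12, adjusted p = 0.500). Its groups overlapped. *Hist1h2ae* (0.62, SE 0.41) and *Hist3h2a* (0.54, SE 0.41) were the next genes above 0, and *Hist2h2be* (-0.22), *Hist2h3c2* (-0.25), *Hist2h2ac* (-0.29) and *Hist1h2ab* (-0.35) those below 0 with the smallest p, none past the threshold.

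Mice differed in direction for the other genes. The median log2(CPM + 1) difference between a mouse's cultures, LPS-BAFF-TGFβ minus LPS-IL-4, over 51 tested genes without *Hist1h1a* was 2.12, -0.03 and -0.36 in control mice and 0.23, 0.46 and -0.60 in Pdap1-deficient mice. For *Hist1h1a* it was 0.73, 0.34 and 0.26 in control mice and 0.57, 0.60 and 0.73 in Pdap1-deficient mice. *Hist1h1a* thus lay above the family median in 5 of the 6 mice and below it in control mouse 1. Of 52 tested histone genes 2 were higher in 6 of 6 mice, *Hist1h1a* and *Hist1h2br*, against 15.3% of 15794 genes.

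**Figure D5:**
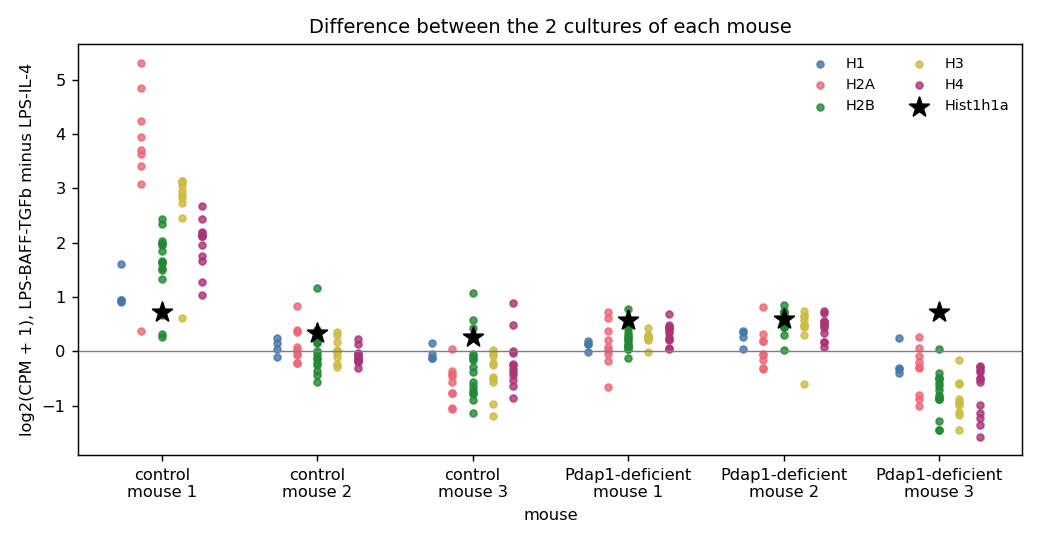
Difference in log2(CPM + 1) between the LPS-BAFF-TGFβ and the LPS-IL-4 culture of each mouse, for the 52 histone genes tested, coloured by class. The star is *Hist1h1a*, which lies above 0 in each mouse. The other genes lie mostly above 0 in control mouse 1 and in Pdap1-deficient mice 1 and 2. They lie mostly below 0 in control mouse 3 and Pdap1-deficient mouse 3, and 24 of 51 lie above 0 in control mouse 2.

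The genotype difference was compared between the stimulations as an interaction over the 12 libraries. Of 52 histone genes edgeR called 0, with 0 at an unadjusted p under 0.05, and DESeq2 called 0 of 50. The test called 0 of 15794 genes (0%), and 1.61% of them were higher and 3.17% lower at an unadjusted p under 0.05. The median was -0.71, and 0.13 without the LPS-BAFF-TGFβ library of control mouse 1 alone. *Hist2h4* (-1.04, SE 0.48), *Hist1h2af* (-4.28, SE 2.08), *Hist2h2ac* (-3.34, SE 1.97) and *Hist1h2ak* (-3.38, SE 2.004) had the smallest p below 0, each with adjusted p = 0.983. *Hist1h1a* (0.17, SE 0.19), *Hist3h2a* (0.36, SE 0.52), *Hist1h2bp* (0.24, SE 0.68) and *Hist1h4j* (0.15, SE 0.80) had those above 0. Without that library alone the values were -0.70 for *Hist2h4*, -1.53 for *Hist1h2af*, -0.037 for *Hist2h2ac* and -0.45 for *Hist1h2ak*, and 0.31, 0.59, 0.99 and 0.66 for *Hist1h1a*, *Hist3h2a*, *Hist1h2bp* and *Hist1h4j*. With a whole mouse left out *Hist2h2ac* ranged from -4.53 to 0.28 and *Hist1h2ak* from -5.02 to -0.021, both nearest to 0 or above it without control mouse 1.

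Genes that act on histone transcription and histone mRNAs were measured beside them. *Slbp* was at 230, 235 and 215 CPM in control and 242, 178 and 235 CPM in Pdap1-deficient LPS-IL-4 libraries (log2 fold change -0.06, adjusted p = 0.809). *Npat* (-0.05, adjusted p = 0.846) and *Casp8ap2*, an Npat partner (0.10, adjusted p = 0.659), also overlapped between genotypes. Of 17 genes of histone transcription and 3′ end processing 2 were called lower with LPS-IL-4, against 2.12% of all genes, and the median of the 17 was -0.06. *Lsm11*, a subunit of the U7 particle, fell by 0.63 (SE 0.16, adjusted p = 0.0484), and *Upf1*, which acts in histone mRNA decay, fell by 0.62 (SE 0.098, adjusted p = 0.00875). In the other comparisons 0 of the 17 were called. The shares of all genes called were 0.462% between genotypes with LPS-BAFF-TGFβ and 0% for the interaction. They were 19.3% for stimulation in control and 11.5% in Pdap1-deficient cells. Of 21 histone chaperones and assembly factors 1, *Ipo4*, a histone importin, was called lower in the LPS-IL-4 comparison (-0.68, adjusted p = 0.00916), against 2.12% of all genes. From LPS-IL-4 to LPS-BAFF-TGFβ cultures of control cells 3 of the 21, *Asf1b*, *Cabin1* and *Daxx*, were called lower, against 9.33% of all genes.

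Cell cycle genes were measured for context. Of 44 S phase genes 1, *Dut*, was called lower in Pdap1-deficient LPS-IL-4 cultures, against 2.12% of all genes, with a median of -0.14. Between genotypes in LPS-BAFF-TGFβ 0 of the 44 were called, against 0.462% of all genes, with the same median of -0.14. Their median deviation from the 12-library mean was between -0.24 and 0.12 in each library on the log2(CPM + 1) scale, against -1.14 to 2.02 for the histone genes. With LPS-BAFF-TGFβ 2 S phase genes were called higher and 2 lower in control cells, against 9.99% and 9.33% of all genes, and 0 higher and 2 lower in Pdap1-deficient cells, against 5.57% and 5.89%. Of 19 tested G2/M genes 0 were called between genotypes. With LPS-BAFF-TGFβ 4 of the 19 in control cells, against 9.99% of all genes, and 3 of the 19 in Pdap1-deficient cells, against 5.57%, were called higher. Of 9 tested replacement histones 0 were called between genotypes, against the same 4.92% and 0.462% of all genes. With LPS-BAFF-TGFβ 1 of the 9 was called higher in control cells, against 9.99% of all genes, and 2 in Pdap1-deficient cells, against 5.57%. *H2afv* was called higher with LPS-BAFF-TGFβ in control (1.24, SE 0.30, adjusted p = 0.0255) and in Pdap1-deficient cells (0.78, SE 0.18, adjusted p = 0.0199). *H2afx* rose by 0.68 in Pdap1-deficient cells (adjusted p = 0.0324). *H2afz* and *H3f3a* were called in 0 comparisons.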

How the data were processed

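RNA-seq was done on 12 libraries from 6 mice, 4 groups of 3. The authors deposited whole-number counts per Ensembl gene. Per the submitters' processing notes, reads were trimmed with Trim Galore 0.6.1, mapped to GRCm38 with STAR 2.6 and counted with HTSeq 0.9.1, which by default leaves out reads that fit several places or overlap several genes. The annotation release and the strand setting of the counting are not given in the sources used here. A second deposited table held the same counts divided by 1 constant per library and was not used.

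Library totals were 4579793 to 69500640 counts. Counts were scaled by TMM and tested with the quasi-likelihood test of edgeR 4.0.16 in R 4.3.3 (filterByExpr, Benjamini-Hochberg adjustment over all genes tested, threshold 0.05) in 5 comparisons, each on its own libraries. A called gene is one under this threshold. Log2 values per library are log2(CPM + 1). P-values between genotypes within a stimulation measure the spread between mice. In the reported stimulation and interaction fits the cultures of a mouse entered as separate samples, so those p-values leave out the pairing. DESeq2 1.42.0, other scalings, other filters, 1 fit over 12 libraries, a mouse or replicate block and leaving out each mouse were the alternatives. The scripts were tested on simulated data. The members and gene lists were chosen with earlier results of these data known.

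Gene models and transcripts were those of GENCODE M21, which names 55450 of the 55536 features. Uniqueness of stretches of 50 and 100 bases was counted against its transcripts on either strand, including genes that overlap at the same place. Summaries used Python 3.11.15 with pandas 2.3.3. Genes are named where they were among the 3 highest or were the lowest of a class, among the 4 smallest p in either direction of a comparison, called, next to the count threshold or overlapping another gene, with *Pdap1* and 7 genes of the lists. *Hist1h4m*, *Hist1h4n*, the H2A to H2B pairs, *Rn7sk*, *Rny3*, *Xist*, the nuclear RNAs and the called genes given for the lists were named after their values were seen.

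Both cultures with the same number were taken to come from the same animal, so the mouse was used as a block in alternative fits. The reported fits had no block. Over genes, deviations from group means correlated between these cultures at r = -0.24, 0.36 and -0.13 in control mice. In Pdap1-deficient mice r was 0.60, 0.69 and 0.40. Across genotypes the replicate numbers share nothing but a number (r from -0.31 to 0.17). No pair of replicates agreed within sampling noise (chi-square per gene 7.07 to 87.1). The locus that carries the Cre allele is not reported here.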

Additional observations from a re-analysis of the deposited data

Results flagged for a closer look

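*Hist2h2be*, an H2B gene with a long annotated 3′ end, had mean genotype differences of opposite sign in the stimulations, neither past the threshold. In LPS-IL-4 cultures it was at 3.38, 4.77 and 3.77 CPM in control mice and 4.51, 4.07 and 5.60 CPM in Pdap1-deficient mice, and each Pdap1-deficient value was above the control mean. In LPS-BAFF-TGFβ cultures it was at 5.93, 5.47 and 3.29 CPM in control mice and 4.03, 4.13 and 3.99 CPM in Pdap1-deficient mice, each below the control mean. The genotype difference on the log2(CPM + 1) scale, LPS-BAFF-TGFβ minus LPS-IL-4, was -0.40. The edgeR interaction did not pass the threshold (-0.54, SE 0.36, adjusted p = 0.98), and the groups overlapped in either culture. Groups of 3 are too small to test for a sample that stands apart.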

How the results depend on the processing

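Called histone genes in LPS-IL-4 between genotypes were 1 as reported, 12 with DESeq2, 3 with DESeq2 size factors, 2 with scaling without histone genes, 7 with no filter, 3 with at least 10 counts in every library, 3 with the replicate block, 0 with 12 libraries in 1 fit and 0 to 16 with a mouse left out, where the median log2 fold change was -0.93 to -0.30. With LPS-BAFF-TGFβ, DESeq2 called 1, leaving out a mouse gave 0 to 1, and the median was -1.83 to -0.50. For the stimulation in control cells, 2 as reported became 1 with DESeq2 size factors, 1 with at least 10 counts, 1 with 12 libraries in 1 fit, 0 with the replicate block and 0 to 4 with a mouse left out. Its median was 0.93 as reported, -0.17 to 1.32 with a mouse left out and 0.55 with the replicate block. In Pdap1-deficient cells leaving out a mouse gave 0 to 1 called and a median of -0.066 to 0.36, with -0.045 without mouse 1 and -0.066 without mouse 2. For the interaction the median was -1.29 to 0.35 with a mouse left out, and 0 genes were called in each. Apart from DESeq2, the share of all genes called under each alternative is not given here.

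Chosen after seeing the data, leaving out the LPS-BAFF-TGFβ library of control mouse 1 alone turned the median to -0.065 for stimulation in control cells and to 0.13 for the interaction, and lowered the median H2A level from 6.81% to 2.05% of the H2B level. The replicate block changed no other call. Across genotypes it links mice that share a number only. The histone share of that library over the median of the others was 3.14 as reported, 3.53 with TMM and 3.44 with DESeq2 size factors. The median H2A level was 6.81% of the H2B level as reported and 14.6% per kb of bases unique over 100. Of 126 summary values under alternatives 93 kept direction and call, 11 were stronger, 11 weaker, 5 moved and 6 reversed. The smallest library held 4579793 counts, 4 of them for *Hist1h2br*. That gene had 3 to 20 counts in each library other than LPS-BAFF-TGFβ of control mouse 1. Causes of these changes were not tested beyond the libraries or genes left out.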
